A study of Mus musculus with 8 samples.

Results

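LTR retrotransposons are mobile elements that resemble retroviruses, with an internal region that encodes retroviral proteins between a pair of long terminal repeats. The repeats carry the promoter and the polyadenylation signal, and recombination between them often leaves a solitary repeat that can still drive or end transcripts of a neighbouring gene. In the mouse the class comprises the endogenous retrovirus families ERV1, ERVK and ERVL, the non-autonomous MaLR elements related to ERVL, and old Gypsy-like sequences. Germ cells hold these elements down with DNA methylation, repressive histone marks and the piRNA pathway. Tex19.1 is expressed in germ cells and pluripotent cells. The study asked how repetitive elements of every class behave when it is lost, and the probes described here are those listed for LTR elements other than the ERVK element MMERVK10C.

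The members were the probes that the study assigned by genomic position and strand to an LTR element other than the internal region of MMERVK10C. There were 358 such probes among the 45281 on the array and among the 1430 repeat probes listed, and all 358 had values in every sample. The copy of the list used here holds fewer rows than the study describes. Its 370 LTR probes, MMERVK10C included, are also slightly fewer than the study counts on this array. The absent LTR probes were not analysed here. The 358 probes stood for 152 elements, with 151 probes of ERVK, 103 of MaLR, 60 of ERV1, 41 of ERVL and 3 of Gypsy elements. Internal regions accounted for 124 probes and long terminal repeats for 234. Each probe is 50 bases long, and the element covered at least 48 of them. A probe of a multicopy element can detect transcripts from many loci, so that a value cannot be assigned to 1 copy.

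RNA came from whole testes at 16 dpp (days post partum), when spermatocytes of the first wave of spermatogenesis reach pachytene. The mice came from a line backcrossed to inbred C57BL/6 to reduce genetic variation. There were 4 Tex19.1-/- animals and 4 Tex19.1+/- controls, numbered 1 to 4 in each genotype and each profiled on 1 array of the type Illumina Mouse WG-6 v2.0 Beadchip. The controls carry 1 functional allele, and no wild-type animal was among the samples. In whole testes, fewer cells of a type and less RNA per cell cannot be told apart.

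For the targeted gene itself, ILMN_2615917 gave a detectable signal in all 4 controls and in 0 knockout testes, at least 4.33-fold lower in the latter (adjusted p = 6.3e-07, limma). All values below are quantile-normalised log2 signals, on which a difference of 1 is 2 fold. A probe counted as expressed when its detection p was under 0.01 in at least 1 array, which kept 19089 probes (42.2%). The arrays detected between 13720 and 15876 probes. Markers of pachytene spermatocytes moved with genotype. Of 15 listed genes 13 were expressed, 9 were called lower and 0 higher (1.63% and 0.141% of all expressed probes were), their median change was -1.49, and their mean level lay between 9.14 and 9.91 in controls and between 7.42 and 8.24 in Tex19.1-/- testes. The lists for spermatogonia, Sertoli, Leydig, peritubular myoid and endothelial cells and macrophages had 0 genes called in either direction by limma, with from 0 to 2 genes each at an unadjusted p under 0.05 in a direction, and their median changes lay between -0.01 and 0.23.

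The 6 probe sequences below are shown because they lie in non-coding transcripts of known chromosome and because a pair of them reads a transcript with a called decrease. Capitals mark the run of bases that 2 probes of the same gene share, which makes the pair near-duplicate readings of 1 transcript. The RMER5 probes (ERV1 family) lie in the long non-coding RNA 4930528A17Rik of chromosome 4 and share 44 bases. The RLTR18B probes (ERVK family) lie in Snhg11, a small nucleolar RNA host gene of chromosome 2, and share 41. LTR16D1 and MT2A are ERVL repeats in the non-coding RNAs 4933412E12Rik of chromosome 10 and 1110018N20Rik of chromosome 2.
RMER5 ILMN_1231706: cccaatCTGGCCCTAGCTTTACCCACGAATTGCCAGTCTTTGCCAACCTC
RMER5 ILMN_2549714: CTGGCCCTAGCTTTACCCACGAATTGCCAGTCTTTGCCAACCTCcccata
RLTR18B ILMN_1238627: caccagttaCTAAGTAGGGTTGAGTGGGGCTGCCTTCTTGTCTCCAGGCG
RLTR18B ILMN_2952098: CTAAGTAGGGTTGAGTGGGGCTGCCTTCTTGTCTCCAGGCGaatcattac
LTR16D1 ILMN_2506388: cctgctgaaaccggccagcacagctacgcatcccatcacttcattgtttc
MT2A ILMN_2497853: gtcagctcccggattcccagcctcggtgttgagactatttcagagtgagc

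Few of the 358 probes shared sequence. Only 13 pairs had a run of 16 or more bases in common, 3 of them with both probes expressed, and the longest run between any member and an MMERVK10C probe was 11 bases. The median GC content of the members was 52%, between 20% and 68%. It was 54% in ERVK and MaLR and 52% in ERV1 and ERVL.

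Expression of LTR elements in these testes was patchy. Of the 358 probes 114 (31.8%) were expressed, from 79 of the 152 elements, and 244 were below the detection limit in all 8 testes. The expressed probes comprised 43 of 151 for ERVK, 35 of 103 for MaLR, 19 of 60 for ERV1, 16 of 41 for ERVL and 1 of 3 for Gypsy. Internal regions were expressed less widely than long terminal repeats, with 24 of 124 probes (19.4%) against 90 of 234 (38.5%). In ERV1 the split was 2 of 26 internal probes against 17 of 34 repeat probes.

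Probes in an annotated gene made up most of what was detected. A gene symbol was attached to 171 members, of which 74 (43.3%) were expressed, and to the other 187 none was, of which 40 (21.4%) were expressed. Of the 74, 62 lay in protein-coding genes, 11 in long non-coding RNAs and 1 in a transcribed pseudogene. Only 50 of the 114 expressed probes were detected in all 8 arrays, and 21 in a single array. A detection p under 0.01 in any of 8 arrays lets some silent probes pass by chance. How many of the 21 did so was not tested. Control testes 1 to 4 detected 78, 85, 90 and 68 members, and Tex19.1-/- testes 1 to 4 detected 72, 75, 70 and 69. The genotypes overlapped in this number, and control 3 had the highest count of members and also of all probes.

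As a class, the LTR probes differed little between the genotypes. The median change of the 114 expressed probes was -0.01 (-/- minus +/-), beside 0.02 for all 19089 expressed probes, 0.04 for 95 LINE probes, 0.02 for 236 SINE probes and 1.43 for the 9 expressed MMERVK10C probes. Their changes ran from -0.90 to 0.44, and 99 of the 114 lay within 0.25 of 0. By direction, 60 were lower and 54 higher in Tex19.1-/- testes. No member passed 2 fold in either direction at an adjusted p of at most 0.01, where 0.828% of all expressed probes did so in the lower and 0.0524% in the higher direction. The limma fit had a median standard error of 0.12 for these probes.

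**Figure D1:**
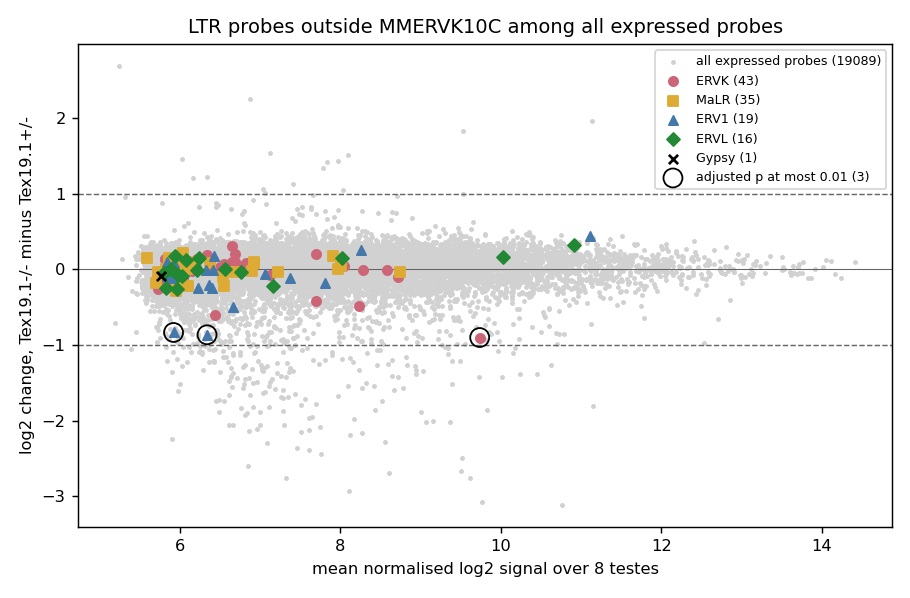
The log2 change (Tex19.1-/- minus Tex19.1+/-, y axis) of each expressed probe is plotted against its mean normalised log2 signal over 8 testes (x axis). Coloured symbols are the 114 expressed LTR probes by family, grey points are all 19089 expressed probes, dashed lines mark 2 fold, and circles mark the 3 LTR probes with an adjusted p of at most 0.01, all of them lower by less than 2 fold.

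In limma, 3 LTR probes were significantly lower in Tex19.1-/- testes and 0 were higher. That is 3 of 114, read against 1.63% of all expressed probes called lower and 0.141% called higher. At an unadjusted p under 0.05 there were 10 lower members, where 7.93% of all probes passed, and 2 higher, where 5.87% did. All 3 called probes were long terminal repeats inside an annotated gene: RLTR1C and RMER5 of ERV1 and RLTR19A of ERVK.

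The RLTR1C probe (ILMN_2782842) lies in Ccdc144b, a coiled-coil gene of chromosome 3. Its signal was 6.77, 6.64, 6.71 and 6.95 in control testes 1 to 4 and 5.92, 5.51, 6.05 and 6.13 in Tex19.1-/- testes 1 to 4. The lowest control lay above the highest Tex19.1-/- animal, and the probe was detected in 4 controls but only in 2 Tex19.1-/- testes. The log2 change was -0.86 (standard error 0.13, adjusted p = 0.0024, limma). Since the values of Tex19.1-/- animals 1 and 2 lay below the lowest detected signal of their arrays, no fold is given. A second RLTR1C probe in Ccdc144b (ILMN_2782841), detected in all 8 testes, had a change of -0.21 (standard error 0.10, adjusted p = 0.39), and its genotypes overlapped.

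For RMER5 in 4930528A17Rik, the probe ILMN_1231706 read 6.36, 6.22, 6.03 and 6.72 in control testes 1 to 4 and 5.66, 5.47, 5.52 and 5.34 in Tex19.1-/- testes 1 to 4. It was detected in all 4 controls and in 0 of the Tex19.1-/- testes, where its level has only an upper limit. Measured against the lowest detected signal of each array, it was at least 1.24-fold lower (fitted change -0.83, standard error 0.14, adjusted p = 0.0039, limma). The overlapping probe ILMN_2549714, whose 44 shared bases are shown in capitals above, read 6.74, 7.003, 6.75 and 7.12 in controls and 6.64, 6.15, 6.39 and 6.45 in Tex19.1-/- testes. It was detected in all 8 testes, its genotypes did not overlap either, and its change was -0.49 (standard error 0.13), which missed the threshold (adjusted p = 0.055). Both readings of this transcript were lower in every Tex19.1-/- animal, and 1 of the 2 passed the test.

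The RLTR19A probe (ILMN_3161906) lies in Kbtbd6, a kelch-repeat gene of chromosome 14 whose human counterpart is a substrate adaptor of a cullin ubiquitin ligase. Control testes 1 to 4 gave 10.09, 10.26, 9.99 and 10.41, and Tex19.1-/- testes 1 to 4 gave 9.43, 8.85, 9.74 and 9.12. All 8 testes were clearly above detection, and the genotypes did not overlap. The change was -0.90 (standard error 0.17, adjusted p = 0.0081, limma), a 1.87-fold decrease. With 1 animal left out at a time this call held in 1 of 8 fits, that of RMER5 in 3 and that of RLTR1C in 7, with adjusted p between 0.0021 and 0.041 for RLTR19A. In the 11 other processing alternatives RLTR19A was called in 7, with changes between -0.96 and -0.59 and an adjusted p of up to 0.60, and RMER5 and RLTR1C in 9 each. The pachytene list given above was lower in the same animals, and its part in these 3 decreases was not tested.

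Genotypes did not overlap for 9 of the 114 expressed probes, 7 lower and 2 higher in Tex19.1-/- testes, where 6.06% of all expressed probes were lower and 4.18% higher in this way. All 7 lower ones lay in annotated genes. Beside the 4 above they included RLTR13D2 in Ifi213 (ILMN_1219896), a member of the interferon-inducible HIN-200 family on chromosome 1. It read 7.01, 6.53, 6.60 and 6.81 in controls and 6.23, 6.18, 6.23 and 5.91 in Tex19.1-/- testes. Its change of -0.60 (standard error 0.13) had an adjusted p of 0.016 in limma, which became 0.0072 once replicate number was blocked. The probe was also called with array weights in the fit. The remaining 2 were RMER12 in Smim8 (ILMN_1246756), on chromosome 4, with a change of -0.49 (standard error 0.15), and RMER20A in Acbd6 (ILMN_1259447), an acyl-CoA binding protein gene of chromosome 1, with -0.41 (standard error 0.14).

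Both higher probes had no gene symbol. The MT2_Mm probe (ILMN_1242047), a long terminal repeat of the ERVL family that flanks MERVL, read 10.68, 10.69, 10.91 and 10.70 in controls and 11.03, 10.94, 11.16 and 11.14 in Tex19.1-/- testes. The change of 0.32 (standard error 0.10) is 1.25 fold and had an adjusted p of 0.13 in limma. Control 3 lay well above the other controls and just below the lowest Tex19.1-/- testis. The MTC probe ILMN_1257131, of the MaLR family, read between 5.75 and 5.81 in controls and between 5.88 and 6.04 in Tex19.1-/- testes but was detected in only 1 of the 8 arrays.

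**Figure D2:**
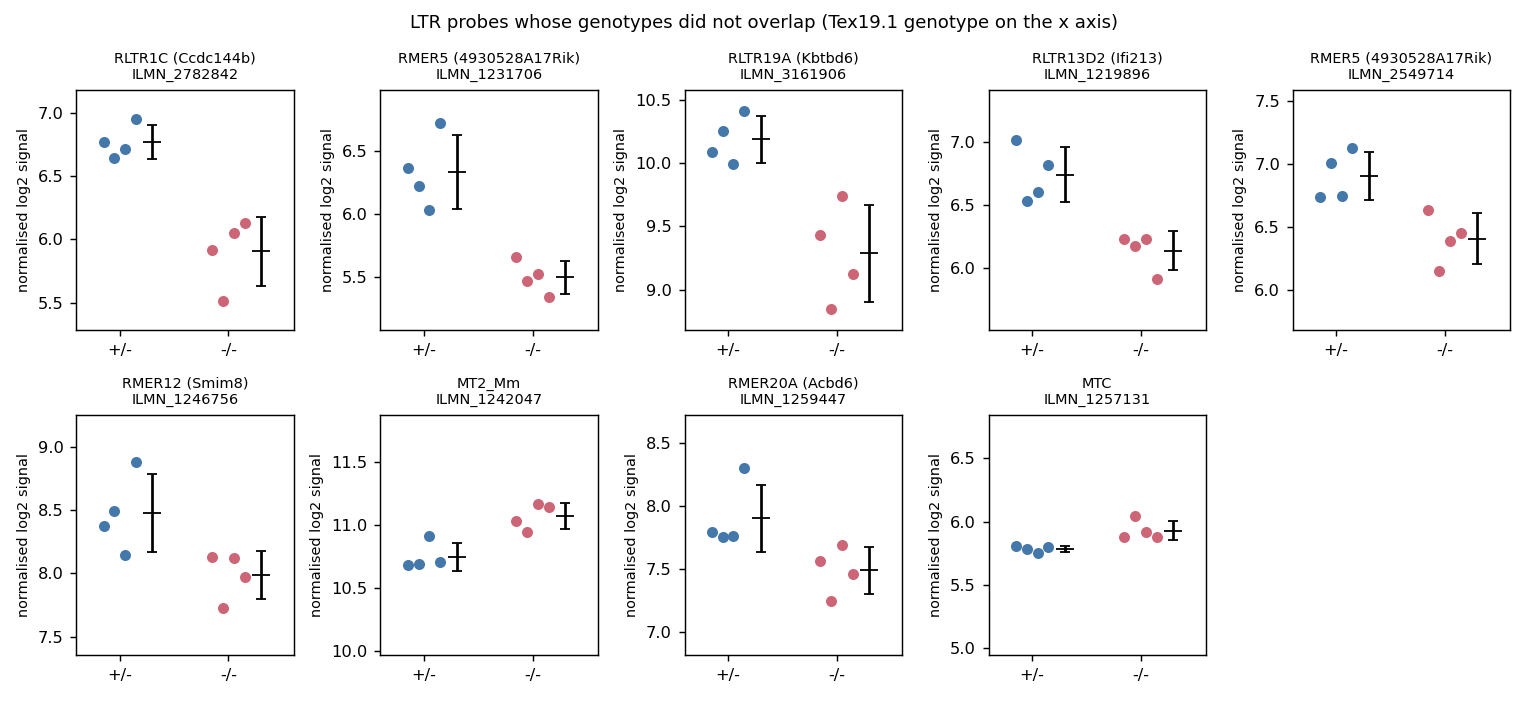
Normalised log2 signal (y axis) of the 9 expressed LTR probes whose genotypes did not overlap, in 4 Tex19.1+/- (blue) and 4 Tex19.1-/- testes (red), each point 1 animal in the order 1 to 4. Black bars are the mean ± SD (n = 4), all panels span the same range of log2 signal, and 7 probes are lower and 2 (MT2_Mm and MTC) higher in Tex19.1-/- testes.

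The families differed little in their means. Averaged over its 43 expressed probes, ERVK had a level of 6.64 ± 0.007 in controls and 6.60 ± 0.05 in Tex19.1-/- testes (SD, n = 4), a difference of -0.03. The 16 ERVL probes gave 6.83 ± 0.04 and 6.84 ± 0.03, a difference of 0.005, and the 35 MaLR probes 6.37 ± 0.06 and 6.36 ± 0.01, a difference of -0.004. The median changes were 0.006, -0.003 and 0.004. In each of these families the genotypes overlapped, and the probes moved both ways: 19 lower and 24 higher in ERVK, 9 and 7 in ERVL, and 17 and 18 in MaLR.

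ERV1 had the largest difference of the 4 main families. Its 19 expressed probes averaged 6.81, 6.86, 6.80 and 6.76 in control testes 1 to 4 and 6.70, 6.67, 6.68 and 6.66 in Tex19.1-/- testes 1 to 4. The genotypes did not overlap, with means of 6.81 ± 0.04 and 6.68 ± 0.02 (SD, n = 4), a difference of -0.13. Of the 19 probes 14 were lower, and the median change was -0.09. The RMER5 and RLTR1C probes carried most of this difference in means. Over the other 15 ERV1 probes it was -0.006 and the genotypes overlapped, with 10 lower and 5 higher and a median change of -0.06. The 6 ERV1 probes without a gene symbol gave a difference of 0.003, with 4 lower and 2 higher and a median change of -0.05. Both of these sets include the MMVL30 probe, whose change of 0.44 raised their means. No test was made on these means, since the probes were grouped with earlier results of the same data known.

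Pooled over the families, and with the ERV1 probes above included, the 74 expressed probes with a gene symbol averaged 6.54 ± 0.05 in controls and 6.47 ± 0.008 in Tex19.1-/- testes, a difference of -0.07, with 43 lower and 31 higher and a median change of -0.03. The 40 without a symbol averaged 6.72 ± 0.03 and 6.75 ± 0.05, a difference of 0.02, with 17 lower and 23 higher and a median of 0.02. The 24 internal-region probes had a difference of 0.02 and the 90 long terminal repeats -0.05. The gene-symbol and long terminal repeat groups each hold all 3 called probes and all 7 lower probes whose genotypes did not overlap. Over all 114 expressed LTR probes the difference was -0.04, and over the 111 left without the called probes -0.01. Of the 40 probes without a symbol 0 were called in either direction (2 lower and 1 higher at an unadjusted p under 0.05). Of the 24 internal probes likewise 0 were called (0 in each direction at an unadjusted p under 0.05). Of all expressed probes 1.63% were called lower and 0.141% higher, and 7.93% and 5.87% passed the unadjusted p. In groups of this size, 0 called is near these shares. Under median scaling, which moved the median of all expressed probes from 0.02 to 0.14, the family differences were positive except that of ERV1, at -0.02.

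**Figure D3:**
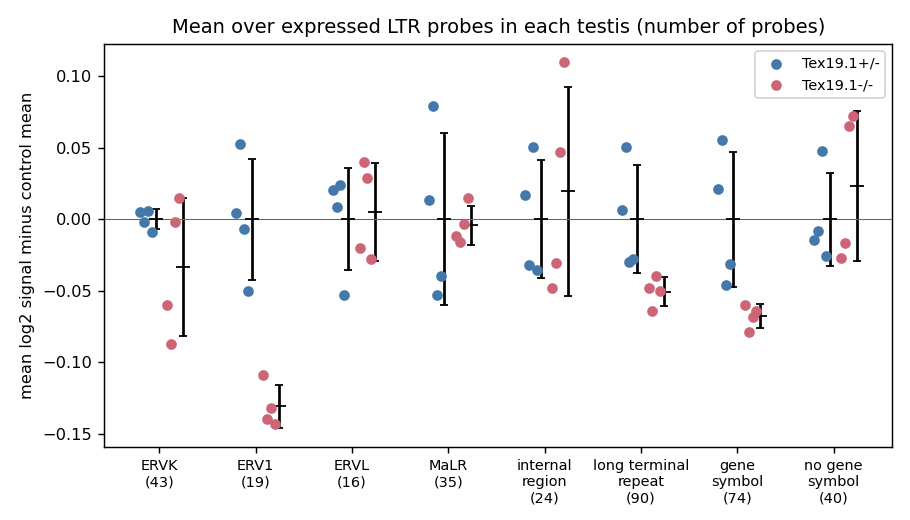
Mean log2 signal over the expressed LTR probes of each group in each testis, minus the mean of the controls (y axis), for 4 families, for internal regions and long terminal repeats, and for probes with and without a gene symbol (x axis, number of probes in brackets). Points are animals, bars the mean ± SD (n = 4), and the ERV1, long terminal repeat and gene-symbol groups have all 4 Tex19.1-/- testes below all 4 controls.

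Among elements known to retain retroviral genes, changes were small. IAP elements, the intracisternal A-particles, are active ERVK retrotransposons of the mouse and relatives of MMERVK10C. Of 20 IAP probes from 6 elements 4 were expressed, with changes between -0.13 and -0.01 and a smallest adjusted p of 0.64. The IAPEz internal probe ILMN_1257107 read 8.75, 8.57, 9.04 and 8.71 in controls and 8.59, 8.37, 8.67 and 9.03 in Tex19.1-/- testes (change -0.10, standard error 0.14). The second, ILMN_1225712, read 8.54, 8.92, 8.52 and 8.37 in controls and 8.65, 8.62, 8.51 and 8.52 in Tex19.1-/- testes (change -0.01, standard error 0.12). In both, the spread within a genotype was wider than the difference between genotypes. The other 2 lay close to the detection limit in Sgip1 and Psg23 (ILMN_2550962 and ILMN_2972829), with changes of -0.06 and -0.13, and the 5 IAPEY3 probes were not detected in any testis.

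ETn elements are non-autonomous ERVK retrotransposons that cause insertional mutations in laboratory mice, and ETnERV2 and ETnERV3 are coding relatives. Of 9 ETnERV2 internal probes 3 were expressed. Of these, ILMN_1221523 read 7.55, 7.53, 7.82 and 7.47 in controls and 7.76, 7.87, 7.70 and 7.85 in Tex19.1-/- testes, a change of 0.20 (standard error 0.11, adjusted p = 0.43). Control 3 lay among the Tex19.1-/- values. The other ETnERV2 probes had differences of 0.12 (ILMN_2536159, detected in 1 array) and 0.006 (ILMN_2578895), and the ETnERV3 probes of 0.06 (ILMN_1218717) and 0.004 (ILMN_2951310, in the pseudogene Pisd-ps2).

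RLTR10 repeats had changes on both sides of 0. The study describes RLTR10 repeats as flanking MMERVK10C and names RLTR10C in a figure caption. No RLTR10C probe was among the members, so the 3 expressed probes here need not read the repeats of MMERVK10C itself. RLTR10 itself (ILMN_1236387) read 7.20, 7.20, 7.05 and 7.16 in controls and 7.12, 6.95, 7.30 and 6.94 in Tex19.1-/- testes, a change of -0.08 (standard error 0.11). RLTR10A (ILMN_2588094) had a log2 difference of -0.07 (standard error 0.12) and RLTR10D (ILMN_1225291) of 0.10 (standard error 0.12). RLTR10D read between 6.58 and 6.62 in all 4 controls but between 6.39 and 6.93 in Tex19.1-/- testes. The smallest adjusted p of the 3 was 0.78.

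Among ERV1 elements, MMVL30, a VL30 element with retroviral structure but no intact coding capacity, was clearly expressed. Its single internal probe (ILMN_1246770) read 10.93, 10.24, 11.50 and 10.90 in controls and 11.08, 11.19, 11.27 and 11.79 in Tex19.1-/- testes. This was the largest positive difference of any expressed member, 0.44 (standard error 0.22), but control 3 lay above 3 of the 4 Tex19.1-/- animals and the adjusted p was 0.41. Animals of 1 genotype differed by more than 1 log2 unit among the controls. RLTR4, the repeat of murine leukaemia virus-like elements, had 3 expressed probes with changes of -0.24 (ILMN_1222071, in the cathepsin E gene Ctse), -0.18 (ILMN_1255287) and 0.10 (ILMN_2420341, detected in 1 array). Control 2 was the highest animal for both of the first, at 6.97 and 8.68, against 6.27 to 6.55 and 7.27 to 7.87 in the other controls. Of 15 probes for the internal region of RodERV21 only 1 was expressed, with a change of -0.09.

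MERVL, the ERVL element known for its burst of expression in the early mouse embryo, was near the detection limit. The internal probe ILMN_1215500 read between 6.49 and 6.61 in controls and between 6.43 and 6.76 in Tex19.1-/- testes, a change of 0.002 (standard error 0.10). The other (ILMN_1215416, in Tnfrsf22) had a log2 difference of -0.002 and was detected in 3 of 8 arrays. MT2A in 1110018N20Rik (ILMN_2497853), whose sequence is shown above, was detected in 2 controls and 0 Tex19.1-/- testes and read 5.95 ± 0.08 and 5.70 ± 0.16 (SD, n = 4). LTR16D1 in 4933412E12Rik (ILMN_2506388) was detected in all 8 testes with a change of -0.23 and an adjusted p of 0.45. All probes of RLTR45 (14), MMERGLN (2), MuLV (1) and RMER16 (1) were below detection in every testis.

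**Figure D4:**
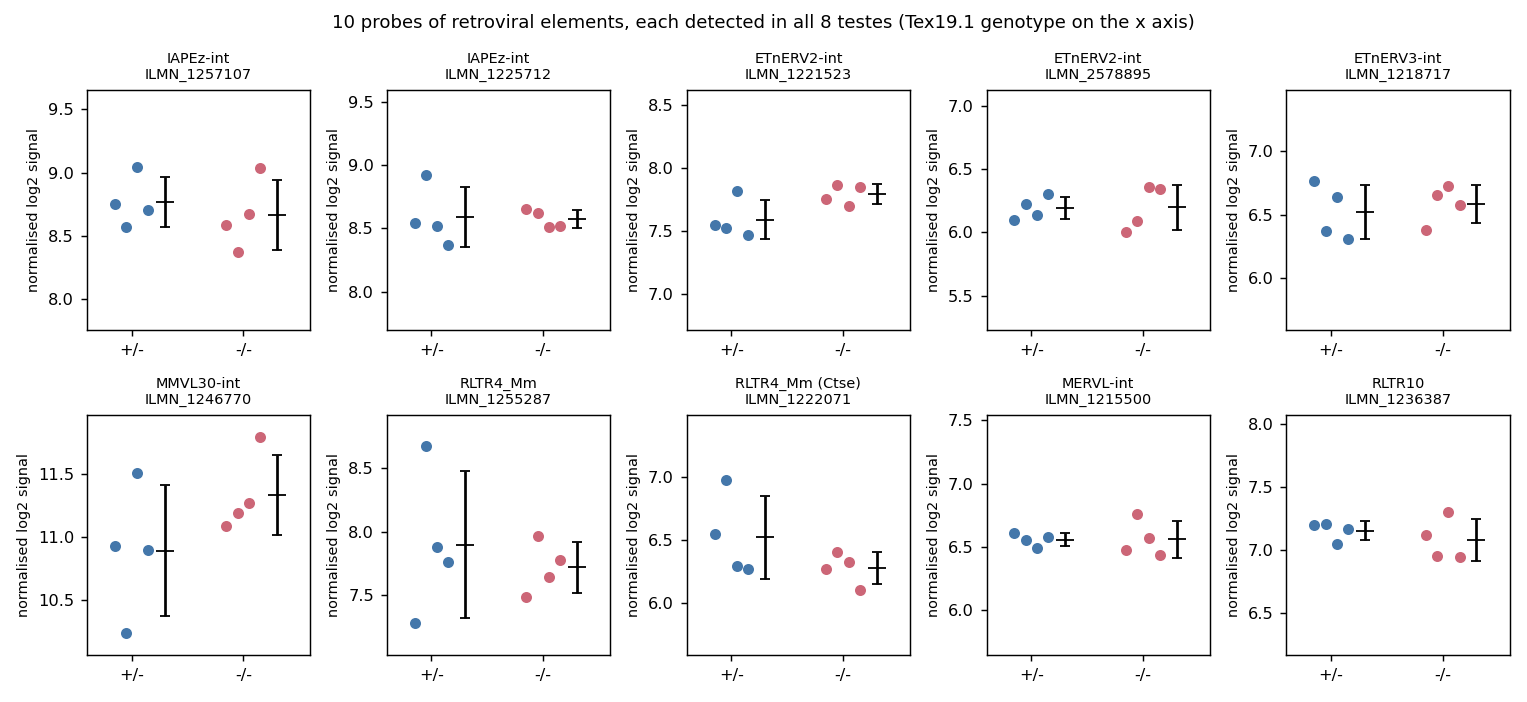
Normalised log2 signal (y axis) of 10 probes of IAPEz, ETnERV, MMVL30, RLTR4, MERVL and RLTR10 elements in 4 Tex19.1+/- (blue) and 4 Tex19.1-/- testes (red), each detected in all 8. Points are animals 1 to 4 in order, bars the mean ± SD (n = 4), panels span the same range of log2 signal, and the genotypes overlap in every panel.

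RLTR44, an ERVK group with 10 probes, had 2 internal probes expressed near the limit, ILMN_1215711 (change -0.26, detected in 2 controls) and ILMN_1255101 (0.11, detected in 2 Tex19.1-/- testes). The other well-detected probes of ERVL and ERV1 lay in genes and also overlapped between genotypes. MER77 in Rnf135 (ILMN_2820379), a ubiquitin ligase gene, had a difference of 0.16 (standard error 0.16), RMER15 in Zfp943 (ILMN_1214239) of 0.15 (standard error 0.11), and MER31A in the tetratricopeptide repeat gene Ttc9c (ILMN_1233738) of 0.26 (standard error 0.11).

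MaLR probes were the most even. Their changes ran from -0.28 to 0.22, and 34 of 35 lay within 0.25 of 0. ORR1E was the element with the most expressed probes, 7 of 12, whose log2 differences lay between -0.22 (ILMN_2700079, in the splicing factor gene Prpf4) and 0.14 (ILMN_2557452). The ORR1E probe in Chordc1 (ILMN_1247694), the gene of an HSP90 co-chaperone, read between 8.52 and 8.91 in controls and between 8.69 and 8.77 in Tex19.1-/- testes, a change of -0.04. ORR1A4 (ILMN_1232900) had a log2 difference of 0.005 (standard error 0.10). MTC and MTD had 3 expressed probes each, with changes between -0.22 and 0.14 and between -0.10 and -0.06, and MTA in the pannexin gene Panx1 (ILMN_2647544) had a log2 difference of 0.008. The MLT1B probe in Ltbp1 (ILMN_1221564), which with the Prpf4 probe had the largest moderated t of this family, had a log2 difference of 0.22 (standard error 0.12, adjusted p = 0.46).

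Variation between animals could exceed that between genotypes, and in some pairs of probes with overlapping sequence it was shared. Animals numbered 2 also deviated together over all expressed probes, with a correlation of 0.52 after genotype means were subtracted. Whether the overlap had a part in the shared variation was not tested. The RLTR18B probes in Snhg11, whose 41 common bases are shown above, read 6.48, 7.01, 6.29 and 6.48 (ILMN_1238627) and 6.56, 6.79, 6.35 and 6.38 (ILMN_2952098) in controls. In Tex19.1-/- testes they read 6.27, 6.91, 6.58 and 6.67, and 6.49, 6.70, 6.35 and 6.45. Animal 2 was the highest of its genotype in all 4 sets, and the changes between genotypes were only 0.05 and -0.02. The other expressed RLTR18B probe (ILMN_2883500, in Gm11541), detected in 1 array, did not share this order. It read 5.74, 5.79, 5.57 and 5.86 in controls and 5.75, 5.69, 5.91 and 6.14 in Tex19.1-/- testes. The RLTR25B probes, named after their values were seen, share 26 bases and showed the reverse, with animal 2 the lowest of its genotype. ILMN_1258205 read 6.92, 6.19, 7.10 and 6.92 in controls and 7.01, 6.28, 6.93 and 7.26 in Tex19.1-/- testes, and ILMN_1241044 read 5.69 in control 2 and 5.71 in Tex19.1-/- animal 2, below the other animals. Their changes were 0.09 and 0.02.

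Many LTR probes sit in genes that other probes also measure. Of the 74 expressed probes with a symbol, from 69 genes, 31 had at least 1 expressed probe outside the repeat list in the same gene. The 2 readings differed by a median of 0.14, and by less than 0.25 for 26 of the 31. Of the 74 probes 63 lay within 0.25 of 0 themselves, so that close readings would be common between unrelated probes too. For RMER20A in Acbd6 (-0.41) the other probe (ILMN_1232903) had a log2 difference of -0.59 (standard error 0.12, adjusted p = 0.015). For RMER12 in Smim8 (-0.49) the 2 other probes had differences of -0.35 (ILMN_1221983, adjusted p = 0.15) and -0.33 (ILMN_2873180, adjusted p = 0.26). The largest gap was at Slu7, a splicing factor gene, where the RMER4B probe (ILMN_1237003) had a difference of 0.31 and the other probe (ILMN_2655273) of -0.12. These genes were named after their values were seen, and the 3 called genes had no other expressed probe outside the repeat list.

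**Figure D5:**
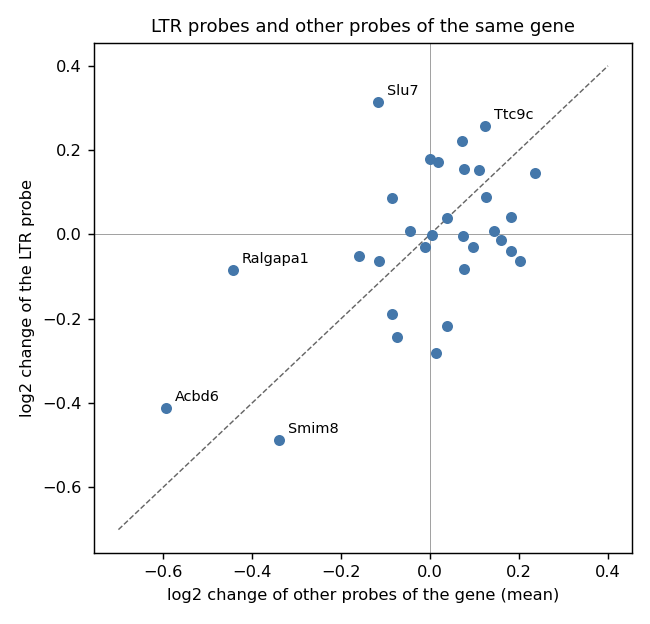
The log2 change of each of 31 expressed LTR probes in a gene (y axis) is plotted against the mean log2 change of the other expressed probes of that gene outside the repeat list (x axis). Points are probes, the dashed line marks equal change, and Acbd6 and Smim8 are lower on both axes whereas Slu7 lies farthest from the line.

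Genes that silence endogenous retroviruses were measured on the same arrays. Of 43 listed genes, which cover KRAB zinc finger repression, histone and DNA methylation, polycomb and the piRNA pathway, 31 were expressed and 0 were called in either direction by limma (6 lower and 1 higher at an unadjusted p under 0.05, where 7.93% and 5.87% of all expressed probes passed). The median change was -0.04. The 4 with the largest moderated t all belong to the germline piRNA pathway, the pachytene marker list was lower in the same animals, and its part in their values was not tested. Tdrd1, a tudor scaffold protein, had a difference of -0.44 (adjusted p = 0.037), Tdrd12 of -0.52 (adjusted p = 0.10) and the helicase gene Ddx4 of -0.33 (adjusted p = 0.15). Piwil2, which encodes a piRNA-binding protein, read 10.71, 10.47, 8.80 and 9.995 in controls and 10.24, 8.36, 8.43 and 8.11 in Tex19.1-/- testes, a change of -1.21 (standard error 0.45). Its adjusted p was 0.22 and, once replicate number was blocked, 0.0098. Trim28 and Setdb1, the corepressor and the histone methyltransferase of KRAB zinc finger silencing, had differences of -0.25 and 0.01.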

How the data were processed

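Total RNA from 8 testes was hybridized to 1 array per animal. The authors deposited for each probe a background-subtracted signal intensity from BeadStudio, which can fall below 0, and a detection p-value. They also deposited log2 values, transformed and quantile-normalized in lumi. Here the intensities of an array were raised by a constant so that the lowest was 1, put on a log2 scale and quantile-normalized, which matched the deposited log2 values of the expressed probes to within 0.0144. Expressed probes (detection p under 0.01 in any array) were fitted with lmFit and eBayes (limma 3.58.1 in R 4.3.3) without a block, with Benjamini-Hochberg adjustment over all 19089. Probes were called at an adjusted p of at most 0.01. A fold written as at least a value compares the mean of the detected genotype with, per array, the higher of the probe's signal and the lowest detected signal. Because only 8 arrays were run, their number limits the precision.

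LTR probes, elements and sequences came from the study's list of repeat probes, held here in a copy of 1430 rows. Gene symbols came from the platform annotation, updated through RefSeq genes (assembly GRCm38.p6), where all but 1 of the 171 symbols had an entry. Positions of probes were not analysed here. Members, gene lists and tests were chosen with earlier results of these data known. The probes named are every called member, the 5 largest changes, in each family the 3 with the highest signal and the 2 with the largest moderated t, all expressed probes of the elements named in the study and of RLTR10, elements with 3 or more expressed probes, and the 4 silencing genes with the largest moderated t. Other probes and genes were named after their values were seen. Each gene is represented by its expressed probe of highest mean signal. For the controls, the study describes wild type and heterozygous animals, whereas the labels give all 4 as heterozygous.

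To check whether replicate numbers pair the animals, genotype means were subtracted and same-numbered animals were correlated. The values for numbers 1 to 4 were 0.21, 0.52, 0.10 and 0.23, all over 0.1. On this basis alone the number was used as a block in an alternative fit, whereas the main fit had no block. No source says what a number marks, so that pairing is not established. Animals 3 and 4 correlated more with another number, at up to 0.45. Figures were drawn with matplotlib 3.10.9.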

Additional observations from a re-analysis of the deposited data

Results flagged for a closer look

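For 3 of the named probes 1 control animal stood far from the other 3, by a gap that exceeded Dixon's critical value for 4 samples. The MLT1B probe ILMN_1221564 read 6.23 in control 3 against 5.78 to 5.86 in the other controls. The MT2_Mm probe ILMN_1242047 read 10.91 in control 3 against 10.68 to 10.70. The RLTR44 internal probe ILMN_1255101, not detected in any control, read 5.66 in control 2 against 5.91 to 5.95. Chance marks about 1 in 20 groups in this way, and 108 groups were examined.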

How the results depend on the processing

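Signals of many LTR probes lay close to background, where the shift, the normalization and the detection limit set the values, and 4 animals per genotype limit the precision. The probes called lower numbered 3, and the called probes kept their direction in every alternative. The count was 0 under median scaling and 0 with signals under 0 set to 0, where limma called only 1 and 20 of all expressed probes lower. It was 2, without RLTR19A, with a normexp background and with the lowest probe of each array left out of the shift. Among the 50 probes detected in all 8 arrays the count was 1, and among the 40 without a gene symbol 0, both counted after seeing the data. Of all expressed probes 1.63% were called lower in the main fit. Leaving out 1 animal at a time gave between 0 and 2, with 0 without Tex19.1-/- animal 1 and 1 without control 1 or without Tex19.1-/- animal 2 or 4. With the replicate number as a block, and likewise with array weights, the count was 4, as RLTR13D2 was added. With the block the silencing list had 1 gene called, Piwil2. The block changed no other call of a named probe or silencing gene. The count of probes called higher was 0 throughout. The mean differences over all LTR probes, ERVK, ERV1, ERVL and MaLR were 0.0614, 0.0628, -0.0166, 0.12 and 0.0810 under median scaling, which raised the median of all expressed probes by 0.12. With signals under 0 set to 0 the first 4 were -0.16, -0.10, -0.52 and -0.14. With the median over probes in place of the mean, the first 3 differences were -0.00187, 0.0283 and -0.18. These are not the medians of the probe changes given above, which were -0.01, 0.006 and -0.09. Without gene symbols the first 4 were 0.0232, 0.0266, 0.00314 and 0.0465. ERV1 alone was -0.20 with a normexp background, -0.0462 with no detection limit and -0.18 among probes detected in every array of a genotype, where ERVL was 0.0651. Apart from leaving out probes or arrays, the cause was not tested. Of 46 named probes that were not called, 10 turned sign under median scaling and at most 8 when 1 animal was left out.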
